A study of Mus musculus with 22 samples.

Results

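The genes of oxidative phosphorylation were followed across single-cell libraries of mouse blood and solid organs. They were chosen by symbol. The 13 mitochondrially encoded members begin with mt-Nd, mt-Co, mt-Atp or mt-Cytb, and the 97 nuclear members begin with Nduf, Uqcr, Sdh, Atp5 or Cox4 to Cox8. Together they made 110 of the 31053 genes in each matrix. They comprised 7 mitochondrial and 36 nuclear genes of complex I, 4 nuclear genes of complex II, 1 mitochondrial and 8 nuclear genes of complex III, 3 and 19 of complex IV, 2 and 16 of complex V, 12 assembly factors and 2 other factors. Each had at least 1 UMI in the tissue libraries, and 6 had none in the sorted blood cells (Cox4i2, Cox7b2, Cox8b, Cox8c, Ndufa4l2 and 1 of the 2 entries named Atp5o).

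Oxidative phosphorylation makes most of the ATP of a resting cell. Complexes I and II take electrons from NADH and succinate, complex III passes them to cytochrome c, and complex IV hands them to oxygen while complexes I, III and IV pump protons that drive the ATP synthase, complex V. Complexes I, III, IV and V are built from proteins of the mitochondrial and the nuclear genome, whereas complex II is nuclear only. Kidney tubules, which reabsorb salt and solutes against gradients, and hepatocytes are rich in mitochondria, whereas mature red cells have none.

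The libraries were droplet-based 3′ profiles (10x Chromium), where each barcode tags 1 droplet and each unique molecular identifier (UMI) 1 captured transcript. Mice of a mixed B6/FVB/N background carried Prom1-CreERT2 and Rosa26ZSG. Cre, driven by the Prom1 promoter and activated by tamoxifen, switched on the ZsGreen tag in Prom1-expressing cells and their progeny. By label the mice were wt (wild type), het (heterozygous) or null for Nalcn, which encodes a sodium leak channel. Nalcn was likewise deleted only where this Cre had been active. Sorted ZsGreen+ blood cells of mice without tumours (ntCZC) came from 2 wt libraries (males of 571 and 608 days), 4 het libraries (males of 551, 551 and 610 days and a female of 649 days) and 4 null libraries (a male of 552 days and females of 551, 612 and 613 days). Pooled, hashtagged and dissociated solid organs (tissue: lung, stomach, liver, kidney and uterus or epididymis) came from 5 wt libraries (males of 571, 571 and 608 days and females of 611 and 654 days), 2 het libraries (males of 551 days) and 2 null libraries (a male of 552 and a female of 611 days). Unsorted blood mononuclear cells (PBMC) came from 1 wt male of 120 days. No animal is named in the labels. Each n therefore counts libraries, and p-values measure the spread between libraries. Libraries of the same age and sex, such as the 2 tissue het libraries, may come from 1 mouse, and blood and tissue libraries may be paired. The tests between classes, of genotype and of blood against tissue all treated libraries as separate, so the spread between animals is not known. The organ of a barcode was not known here, since the hashtag counts were not used.

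Total UMIs ran from 8571019 to 139793927 in tissue, from 161541 to 2600526 in ntCZC and were 1422144 in PBMC, and median UMIs per barcode ran from 325 to 6892. Nalcn, a 3′ tag whose place relative to the deleted part is not given in the sources used here, had no UMI in ntCZC or PBMC and between 0 and 18 in a tissue library (39 UMIs over 5 wt, 11 over 2 het and 24 over 2 null libraries), so it did not check the labels. The tissue null replicate 3 was labelled female but held Xist at 1347 CPM (UMIs scaled to the library total) together with Y-linked genes at 31.2 CPM. It also held at least 20 barcodes that were classed below as epididymal-like. The class comparisons, member counts and leading isoform percentages that rest on it are therefore also given without it, whereas levels in CPM, single-gene tests, counts per complex, values by depth, means within a sex and the lists of other pathway genes include it. Another 2 tissue libraries carried labels that named different genotypes and entered no comparison. Libraries shared few barcodes, at most 2.60% of the smaller of a pair.

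Barcodes were placed in classes by marker genes that include no member, and no cutoff on mitochondrial UMIs was applied. A barcode took a class when it had UMIs from at least 3 of the 7 gate markers of that class and at least 2 more than for any other of 26 classes. Barcodes with at least 50% of UMIs from haemoglobin genes were set apart first as haemoglobin-dominated. Of 179929 barcodes, 87433 were gated, 4820 were haemoglobin-dominated and 87676 stayed ungated, and 38.9% of the gated ones sat at the limit, with exactly 3 markers or a margin of 2. A further 4 markers per class, not used by the gate, checked the names. At least 1 was found in 95% of kidney proximal tubule-like barcodes and 25.3% of other tissue barcodes, in 78.9% and 1.74% for kidney loop of Henle-like, in 94.8% and 7.11% for hepatocyte-like, in 96.0% and 37.4% for nonclassical monocyte-like and in 60.0% and 5.56% for B cell-like ones. The gastric mucous-like and club-like names rested on weaker checks (35.4% and 42.2%). No doublets were removed.

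The members differ in where they are encoded, and in 4 places neighbouring mitochondrial genes overlap, which limits how far their counts can be told apart. The pairs with the longest overlaps on the same strand are printed. The end of mt-Atp8 and the start of mt-Atp6, both subunits of complex V, share 43 bases (chrM:7927-7969, mm10, + strand), and the end of mt-Nd4l and the start of mt-Nd4 of complex I share 7 bases (chrM:10167-10173, + strand). The shared bases are in capitals, from GENCODE vM21 transcripts, and the counts of these 4 genes are uncertain relative to each other. mt-Atp6 and mt-Co3 share 1 base (chrM:8607). mt-Nd5 on the + strand and mt-Nd6 on the − strand share their last 14 bases (chrM:13552-13565), and the strand setting of the counting is not given in the sources used here, so these counts are uncertain too.
mt-Atp8 and mt-Atp6, chrM:7907-7989: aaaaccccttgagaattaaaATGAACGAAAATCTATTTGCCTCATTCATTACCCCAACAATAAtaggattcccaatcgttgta
mt-Nd4l and mt-Nd4, chrM:10147-10193: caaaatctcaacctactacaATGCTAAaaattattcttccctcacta

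The 97 nuclear members lie on autosomes or the X chromosome and are transcribed from promoters of their own. RefSeq promoter windows (GRCm38.p6, from 250 bases before to 50 after a gene's start) were found for 78 of their 96 distinct symbols. Both strands were searched for the letters GCGCATGC (the core of the nuclear respiratory factor 1 motif, whose reverse complement overlaps it in longer matches), CCGGAAG (GABPA, also called nuclear respiratory factor 2) and AAGATGGC (YY1), which are factors known to act on respiratory genes. A gene counted once if any of its windows matched. GCGCATGC was found in 12 of 78 members (15.4%) and 3.05% of all 27025 genes with a window, members included. CCGGAAG was found in 21 members (26.9%) and 9.93% of these genes, and AAGATGGC in 10 members (12.8%) and 3.19% of these genes. Any of the 3 was present in 36 members (46.2%) and 14.9% of these genes. A match describes letters and not a bound site. The examples below, each overlapping no exon of GENCODE vM21, show a match on either strand in capitals, read 5′ to 3′ along the gene, for an assembly factor of complex I (Ndufaf4), an accessory subunit of complex I (Ndufa6), a small subunit of complex III (Uqcr11) and the epsilon subunit of the ATP synthase (Atp5e).
Ndufaf4, chr4:24897944-24898003, + strand, nuclear respiratory factor 1: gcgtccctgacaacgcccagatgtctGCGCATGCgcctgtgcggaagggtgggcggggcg
Ndufa6, chr15:82354341-82354400, − strand, nuclear respiratory factor 1, reverse complement: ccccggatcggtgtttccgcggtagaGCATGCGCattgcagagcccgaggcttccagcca
Uqcr11, chr10:80406855-80406913, − strand, GABPA: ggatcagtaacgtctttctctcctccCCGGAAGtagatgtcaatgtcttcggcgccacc
Atp5e, chr2:174464171-174464229, − strand, GABPA, reverse complement: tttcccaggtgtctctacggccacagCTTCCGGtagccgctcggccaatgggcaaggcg

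Hepatocyte-like, loop of Henle-like and proximal tubule-like barcodes had the highest mean shares of UMIs from the mitochondrially encoded members among the gated tissue classes, and the 4 kidney classes had the highest nuclear shares. The mitochondrial share is given as a percent of all UMIs of a class in a library, and the nuclear share as a percent of the UMIs outside the mitochondrial members, so that the latter did not fall only because the former rose. In kidney proximal tubule-like barcodes (12077 in 9 libraries) the mitochondrial share was at lowest 37.8%, at median 50.7% and at highest 61.0%. The mean was 50.3% ± 7.20 (SD, n = 9), against 25.4% for the equal-weight mean of the other classes in the same libraries. The share was higher in 9 of 9 libraries, by 24.9 percentage points (12.6 to 31.1; exact two-sided sign-flip permutation p = 0.00391, the smallest that 9 libraries allow, adjusted p = 0.0132 over 44 tests by Benjamini-Hochberg). The nuclear share ran from 4.40% through a median of 5.76% to 6.78%. It averaged 5.64% ± 0.712 (SD, n = 9) against 2.56% in the other classes, higher in 9 of 9 libraries by 3.08 points (2.39 to 4.06; exact permutation p = 0.00391, adjusted p = 0.0132). Without tissue null replicate 3 these differences were 25 and 3.11 points. In barcodes with at most 25% mitochondrial UMIs the mitochondrial difference was 5.71 points, and as a percent of all UMIs the nuclear difference was 1.02 points.

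Loop of Henle-like barcodes, from the segment that carries salt reabsorption through Slc12a1, held more than the other classes in both shares and more than the proximal tubule in the nuclear share. The mitochondrial share was 40.8% at lowest, 51.2% at median and 59.1% at highest over 8 libraries, and the nuclear share 6.54%, 9.28% and 11.1%. The differences from the other classes were 27.0 points (15.9 to 38.5) and 6.58 points (4.66 to 8.56), each higher in 8 of 8 libraries (exact permutation p = 0.00781, adjusted p = 0.0149). In a comparison chosen after the values had been seen, the nuclear share was higher than that of proximal tubule-like barcodes in 8 of 8 libraries, by 3.30 points (2.15 to 4.30; exact permutation p = 0.00781, adjusted p = 0.0234 over 6 comparisons). The mitochondrial share differed by 1.37 points, between −5.81 and 8.53 over the libraries (exact permutation p = 0.398). Leaving out tissue null replicate 3 gave differences from the other classes of 27.5 and 6.53 points, and the nuclear share was 3.22 points over that of proximal tubule-like barcodes (7 of 7 libraries, exact permutation p = 0.0156). A loop of Henle-like barcode thus held 12.1 mitochondrial UMIs per nuclear member UMI, and a proximal tubule-like one 17.6. Distal-like and intercalated-like barcodes, each in 2 libraries, had nuclear shares of 8.44% and 7.81% and mitochondrial shares of 33.2% and 35%.

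Hepatocyte-like barcodes had the highest mitochondrial share, and a nuclear share (3.09% on average) under those of the 4 kidney classes and near that of gastric mucous-like barcodes (3.12%), above the mean of each other gated class. In 4 libraries (57 barcodes in het replicate 1, 114 in het replicate 2, 64 in null replicate 2 and 26 in wt replicate 3) the mitochondrial share was 88.0%, 82.0%, 78.5% and 69.3%. All 4 lay above every library's proximal tubule value. The difference from the other classes was 55.4 points, higher in 4 of 4 libraries, and the smallest p that 4 libraries allow is 0.125 (exact permutation p = 0.125). Their nuclear share was 3.84%, 3.39%, 2.34% and 2.78%, values that overlapped smooth muscle-like (3.04% ± 0.380, SD, n = 8) and epididymal-like barcodes (2.82% ± 0.236, SD, n = 6). Hepatocyte-like barcodes held 141 mitochondrial UMIs per nuclear member UMI, against 16.8 in proximal tubule-like barcodes of the same 4 libraries (differences of 62.7 to 175). Over the tissue libraries the median hepatocyte-like barcode held 3846 mitochondrial and 9 nuclear member UMIs, at a median of 4760 UMIs in all. Their nuclear values, including those of single genes, thus rest on few UMIs per barcode, and whether these droplets held intact cells was not tested.

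Of the 22 classes tested in tissue, 9 were lower than the others in both shares past the test, 2 (the kidney classes above) were higher in both, and 1, neutrophil-like, was higher in one and lower in the other (8, 2 and 1 without tissue null replicate 3). The endothelial-like differences were −5.46 and −1.04 points and the fibroblast-like ones −8.41 and −1.26 points. Neutrophil-like barcodes had a mitochondrial share of 18.6% at lowest, 31.0% at median and 50.9% at highest, 4.36 points over the other classes in 8 of 9 libraries (exact permutation p = 0.0117, adjusted p = 0.0215). Their nuclear share of 1.59% ± 0.417 (SD, n = 9) was lower than the other classes in 9 of 9 libraries, by 1.22 points (exact permutation p = 0.00391, adjusted p = 0.0132). Gastric mucous-like barcodes had a nuclear share of 3.12% ± 0.566 (SD, n = 9), higher than the other classes in 9 of 9 libraries by 0.401 points (exact permutation p = 0.00391, adjusted p = 0.0132). Their mitochondrial share ranged from 14.5% to 66.1% over libraries and its difference of 10.1 points did not pass the test (exact permutation p = 0.0859, adjusted p = 0.105). Without tissue null replicate 3 the mitochondrial and nuclear differences were 3.90 and −1.28 points in neutrophil-like and 7.65 and 0.413 points in gastric mucous-like barcodes, each on the same side of the threshold. Plasma cell-like and club-like barcodes had the lowest nuclear shares of the gated classes, 1.42% and 1.46%.

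Haemoglobin-dominated barcodes also held mitochondrial transcripts, although mature red cells have no mitochondria. Whether these barcodes were mature red cells, younger ones or mixed droplets was not tested. In tissue their mitochondrial share was 8.20% at lowest, 15.4% at median and 24.1% at highest over 7 libraries. Epididymal-like (14.7%), mesothelial-like (13%), alveolar macrophage-like (11.5%) and plasma cell-like barcodes (10.1%) lay under their mean of 16.1%. Fibroblast-like (16.7%), classical monocyte-like (16.8%), ciliated-like (17.8%), macrophage-like (17.9%), nonclassical monocyte-like (19.0%) and smooth muscle-like shares (20.3%) were within 1 SD (5.48) of it. Leaving out tissue null replicate 3 gave a mean of 15.5%, and means of 13.6%, 12.3%, 11.3% and 10.2% for the 4 classes under it. At least 50% of the UMIs of a haemoglobin-dominated barcode are haemoglobin, so these percentages are not on an equal footing. Such a barcode held a median of 181 mitochondrial UMIs of 1743 in all, whereas the median number of mitochondrial UMIs was 448 in epididymal-like, 403 in alveolar macrophage-like, 363 in mesothelial-like and 339 in plasma cell-like barcodes. The nuclear share of haemoglobin-dominated barcodes was 0.580% ± 0.274 (SD, n = 7), under that of every gated class (0.525% without tissue null replicate 3). With haemoglobin UMIs left out, the remaining UMIs of these barcodes were 51.6% ± 8.89 mitochondrial and the rest of them 3.12% ± 0.772 nuclear members (SD, n = 7). Over the 7 tissue libraries the haemoglobin-dominated share rose with that of endothelial-like barcodes (Pearson's r = 0.973, exact permutation p = 0.000595, adjusted p = 0.00179 over 3 relations; Spearman's rho = 1.00, exact permutation p = 0.000397). Without the 2 libraries farthest from the median r was 0.970. The relation with neutrophil-like barcodes was r = 0.908 (exact permutation p = 0.00615, adjusted p = 0.00923; rho = 0.929, exact permutation p = 0.00675; r = 0.815 without 2 libraries), and with proximal tubule-like barcodes r = 0.395 (exact permutation p = 0.381; rho = 0.500, exact permutation p = 0.267; r = 0.378 without 2 libraries). Without tissue null replicate 3, over 6 libraries, r was 0.972 for endothelial-like (exact permutation p = 0.00139), 0.902 for neutrophil-like (exact permutation p = 0.0167) and 0.482 for proximal tubule-like barcodes (exact permutation p = 0.346).

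**Figure D1:**
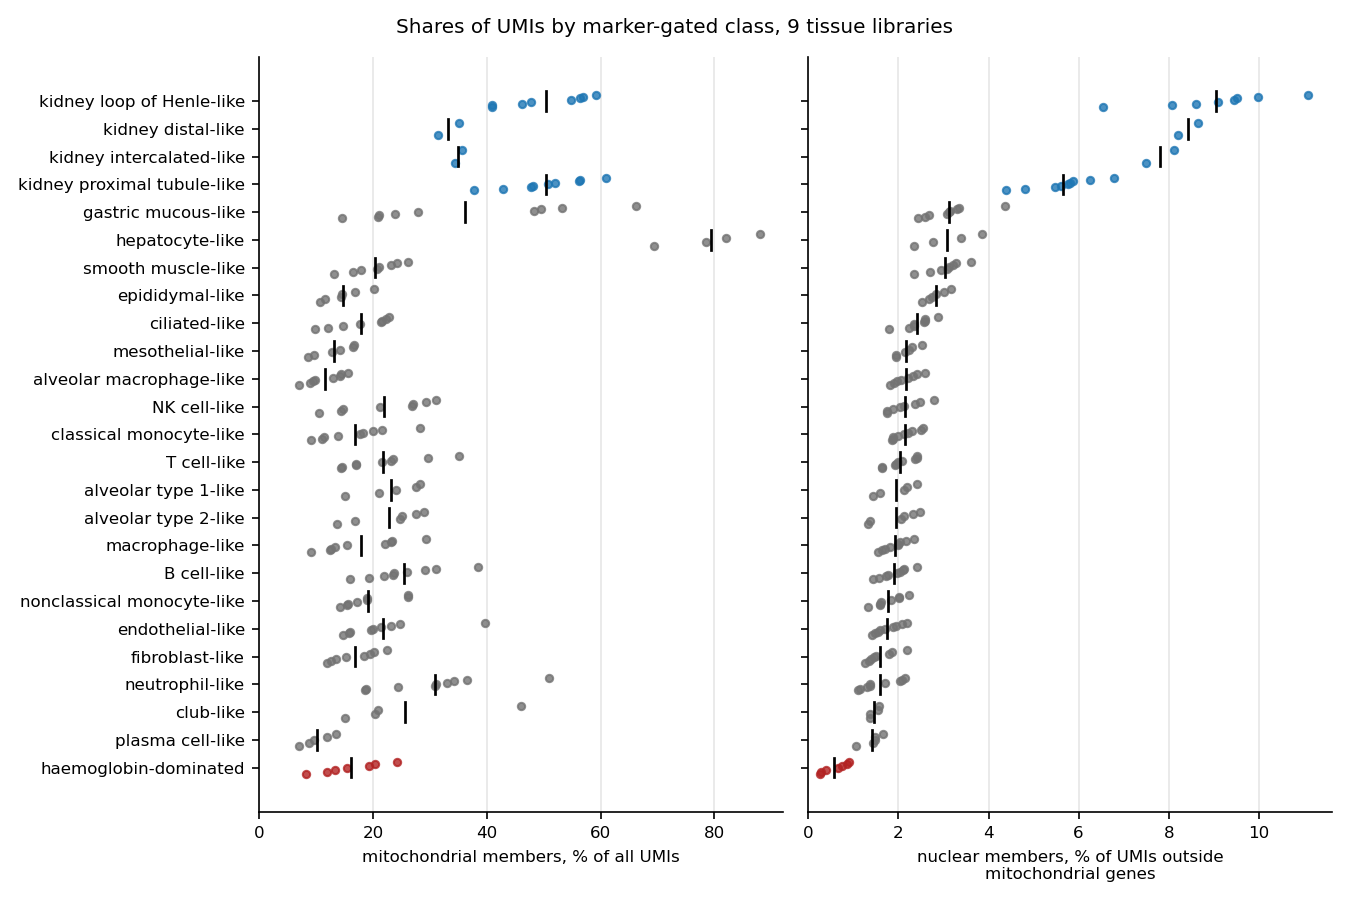
Mitochondrial share (percent of all UMIs) and nuclear share (percent of UMIs outside the mitochondrial members) of each marker-gated class in the tissue libraries, 1 point per library with the class mean as a vertical line. Proximal tubule-like and loop of Henle-like barcodes stand high on both shares, and hepatocyte-like barcodes (69.3% to 88.0%) highest on the mitochondrial share.

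The mitochondrial share also differed between libraries, and it is given by depth. Among the 8 classes present in all 9 tissue libraries, wt replicate 5, the smallest tissue library with 1856 barcodes, was highest in 8 of 8 (43.6% on average), whereas wt replicate 1 and wt replicate 2 (18.8% and 18.6%) were lowest in 4 and 3. The median over libraries of proximal tubule-like barcodes was 39.1% at 500 to 1000 UMIs (7 libraries), 56.3% at 5000 to 10000 UMIs (8 libraries) and 50.5% above 10000 (5 libraries), and the median nuclear share ran from 4.98% to 6.35%. In endothelial-like barcodes the median mitochondrial share was 26.3% at 500 to 1000 UMIs (7 libraries) and 12.4% above 10000 (3 libraries). The depths hold different sets of libraries, so these medians are not a trend within libraries. As a description of what a cutoff would take away, 86.7% of proximal tubule-like, 89.3% of loop of Henle-like and 91.4% of hepatocyte-like barcodes in tissue had over 25% mitochondrial UMIs, against 31.1% of endothelial-like and 13.3% of haemoglobin-dominated ones.

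Gene by gene, the kidney classes were higher for nearly every member. Counts were summed per library and class, and each of 22 classes was set against the equal mean of the others with the edgeR quasi-likelihood test, the library as a block, and Benjamini-Hochberg adjustment over 13136 genes, of which 106 were members (13 mitochondrial and 93 nuclear). In proximal tubule-like barcodes 13 of 13 mitochondrial and 89 of 93 nuclear members were higher and none was lower, where 37.6% of all genes tested were called higher. The median log2 difference was 1.91 for the mitochondrial and 1.47 for the nuclear members, against 0.04 for all genes. In loop of Henle-like barcodes 13 of 13 and 86 of 93 were higher and none lower (median 1.61 and 1.78, all genes −0.07), where 25.5% of all genes were called higher. No other class had more than 64 nuclear members higher. The counts without tissue null replicate 3 were 13 and 89 in the proximal tubule and 13 and 87 in the loop of Henle, where 39.4% and 28.7% of all genes were called higher and 17.1% and 14% lower, with no member lower. Of the 106 members, 0 calls changed in the proximal tubule, 1 was gained in the loop of Henle and 9 in hepatocyte-like barcodes, and none was lost in these 3 classes. All counts over members refer to those that passed the filter on low counts. Since the 22 classes enter the same fit, the contrasts of these 2 classes share their comparison samples.

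Within complexes II and I, the flavoprotein Sdha and the core subunit Ndufs1 had the largest log2 differences in the proximal tubule. Levels of nuclear members are in CPM scaled to the UMIs outside the mitochondrial members, and levels of mitochondrial members in CPM of all UMIs. They are per transcript end and not per length. Sdha (chr13:74322254-74350280, − strand), the subunit of complex II that oxidises succinate, was at 504 CPM at lowest, 595 at median and 782 at highest in proximal tubule-like barcodes and at 153, 175 and 203 in the mean of the other classes. The groups did not overlap, and the log2 difference was 2.19 ± 0.0692 (SE; edgeR adjusted p = 3.18e-66). All 4 subunits of complex II were higher in both kidney classes. Sdhd, a membrane anchor of the complex, was at 81.3, 178 and 215 CPM against 32.9, 87.7 and 128 CPM, groups that overlapped, with a log2 difference of 1.40 ± 0.0986 (SE). All 36 nuclear members of complex I tested were higher in both classes, with a median log2 difference of 1.43 (0.80 to 2.16) in the proximal tubule and 1.80 (1.22 to 2.34) in the loop of Henle. Ndufs1, the largest iron-sulphur subunit of complex I, had the largest of these in the proximal tubule, at 160, 192 and 261 CPM against 44.4, 58.5 and 84.6 CPM (log2 difference 2.16 ± 0.0983, SE). Ndufa5, an accessory subunit, had the largest in the loop of Henle, at 630, 779 and 1076 CPM against 123, 160 and 230 CPM (log2 difference 2.34).

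Complex III members, which pass electrons to cytochrome c, were all higher in both classes (8 of 8, median log2 difference 1.79 in the proximal tubule and 1.97 in the loop of Henle). Its core proteins Uqcrc1 and Uqcrc2 and the Rieske iron-sulphur protein Uqcrfs1 had log2 differences of 1.84, 1.85 and 1.75 in the proximal tubule and 1.98, 1.85 and 2.00 in the loop of Henle. Uqcr10, a small subunit, was at 906, 1261 and 1375 CPM in the proximal tubule and at 280, 392 and 518 CPM in the other classes, without overlap. Of the nuclear complex IV members, 14 of 16 were higher in the proximal tubule and 12 of 16 in the loop of Henle. Cox4i1, the common form of subunit 4, was at 3003, 3516 and 4567 CPM in the proximal tubule against 968, 1514 and 2116 CPM (log2 difference 1.62 ± 0.0688, SE). After Cox7a1, described with the isoforms, Cox5b and Cox7b had the largest differences of complex IV in the loop of Henle, at 1547, 2040 and 2461 against 298, 364 and 491 CPM and at 1027, 1647 and 2232 against 212, 318 and 388 CPM (log2 differences 2.45 and 2.42). None of these groups overlapped.

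Complex V was higher as a whole (15 of 15 nuclear members in both classes), though its c-ring genes differed. The catalytic subunits Atp5a1 and Atp5b had log2 differences of 1.72 and 1.88 in the proximal tubule and 2.05 and 2.22 in the loop of Henle. The c subunit, the proton-driven rotor, is encoded by Atp5g1, Atp5g2 and Atp5g3, whose mature proteins are identical. Atp5g1 (chr11:96068852-96075670, − strand) was at 1752, 2555 and 3264 CPM in the loop of Henle against 301, 452 and 566 CPM (log2 difference 2.58). Atp5g2 was at 394, 565 and 680 CPM in the proximal tubule against 315, 496 and 609 CPM, groups that overlapped, with the smallest log2 difference of complex V (0.43 ± 0.102, SE; edgeR adjusted p = 0.00011). As a share of the UMIs of the 3 genes, Atp5g2 made 19.0% ± 1.78 (SD, n = 9) in the proximal tubule and 17.3% ± 1.85 (SD, n = 8) in the loop of Henle, but 41.0% ± 3.23 (SD, n = 9) in endothelial-like and 43.6% ± 3.53 (SD, n = 9) in tissue B cell-like barcodes. These 4 shares without tissue null replicate 3 were 19.0%, 17.2%, 41.2% and 44.1%. A low Atp5g2 share was not particular to the proximal tubule and loop of Henle. It was 20.2% in distal-like, 21.5% in hepatocyte-like, 23.6% in intercalated-like, 25.5% in haemoglobin-dominated and 28.2% in gastric mucous-like tissue barcodes. Atp5g3 had the highest mean in the proximal tubule (43.1% ± 8.10, SD, n = 9), though its spread overlapped that of Atp5g1 (37.9% ± 7.19, SD, n = 9). Atp5g1 led in the loop of Henle (48.5%) and in epididymal-like barcodes (48.1%). Without tissue null replicate 3 the highest means in these classes were 43.5%, 48.5% and 47.8%.

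Assembly factors, which build the complexes without being part of them, differed less (11 of 12 higher with a median log2 difference of 0.99 in the proximal tubule, and 10 of 12 with 0.85 in the loop of Henle). Ndufaf6, which acts early in complex I assembly, differed most among them in the proximal tubule, at 22.2, 33.4 and 49.0 CPM against 7.16, 9.51 and 13.3 CPM (log2 difference 1.95). Members that did not pass in the proximal tubule included Sdhaf2, which attaches the flavin to Sdha (log2 difference −0.03, edgeR adjusted p = 0.986), and Cox7a2l, a supercomplex factor (−0.15, edgeR adjusted p = 0.179). In the loop of Henle they included Cox7a2l (0.11, edgeR adjusted p = 0.447) and Cox6b2 (0.67, edgeR adjusted p = 0.0561). The fitted values of Cox4i2 and Ndufa4l2 had standard errors too large to read, and both are described by their shares further on.

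Among the mitochondrial members the log2 differences in the proximal tubule ran from 1.63 for mt-Co1, the catalytic subunit of complex IV, to 2.16 for mt-Nd4l, with mt-Nd1 at 1.84, mt-Nd2 at 1.91, mt-Nd3 at 2.14, mt-Nd4 at 1.93, mt-Nd5 at 2.04, mt-Nd6 at 2.07, mt-Cytb at 1.93, mt-Co2 at 1.85, mt-Co3 at 1.85, mt-Atp6 at 1.77 and mt-Atp8 at 1.86. In the loop of Henle they ran from 1.23 for mt-Nd6 to 1.90 for mt-Nd4l. The levels overlapped between libraries for each of the 13 in the proximal tubule. For mt-Co3, the most counted of them, they were 80533, 101665 and 129912 CPM in the proximal tubule against 30410.2, 55839 and 81848 CPM in the other classes. Of the 97 nuclear members, 62 had groups that did not overlap in the proximal tubule and 75 in the loop of Henle, where 8 of the 13 mitochondrial members also did not overlap. The share of all genes without overlap was not counted, so these counts describe the members and are no result particular to them.

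**Figure D2:**
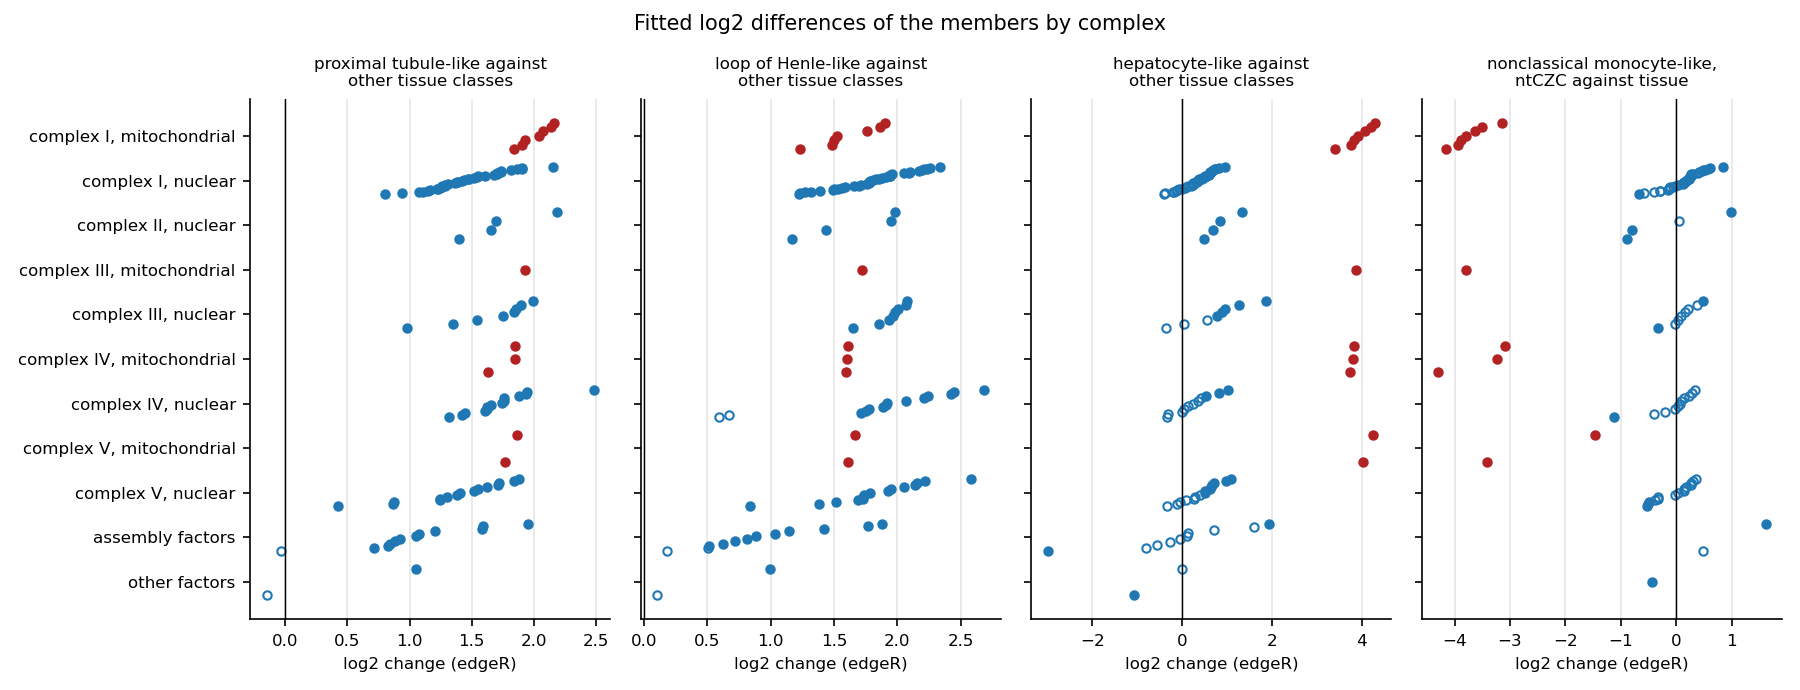
Fitted log2 differences (edgeR) of the members, grouped by complex, in 3 tissue classes against the other classes and in nonclassical monocyte-like barcodes of ntCZC against tissue, 1 point per gene (red mitochondrial, blue nuclear; filled where the adjusted p was under 0.05; genes with an SE over 1 are not drawn). In the kidney classes all mitochondrial and most nuclear genes lie above 0. In hepatocyte-like barcodes the mitochondrial ones lie between 3.40 and 4.30 and the nuclear ones have a median of 0.36. In ntCZC monocyte-like barcodes the mitochondrial ones lie between −4.29 and −1.46.

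In hepatocyte-like barcodes each mitochondrial member had a larger log2 difference than the median nuclear one. All 13 mitochondrial members were higher, from 3.40 for mt-Nd6 to 4.30 for mt-Nd4l (log2, median 3.87), against 32 of 93 nuclear members higher and 2 lower, where 9.1% of all genes were called higher and 12.2% lower. The median nuclear member differed by 0.36 and the median of all genes by −0.78 on the log2 scale, so relative to all genes the nuclear members were higher by more than their own values show. Complex II was higher throughout (4 of 4, Sdhd 1.34, Sdhc 0.84, Sdhb 0.70 and Sdha 0.49), as were 5 of 8 members of complex III, 11 of 36 of complex I, 8 of 15 of complex V and 3 of 16 of complex IV. The largest differences outside the lists of core subunits and isoforms were those of Ndufaf1, a complex I assembly factor (1.94), and of the small complex III subunits Uqcrq (1.86) and Uqcr11 (1.27). Sdhaf1, which helps insert the iron-sulphur clusters of complex II (−2.99), and Cox7a2l (−1.06) were lower. Tissue null replicate 3 held no hepatocyte-like sum, and without its other classes the counts were 13 mitochondrial members higher with 41 nuclear members higher and 2 lower, where 9.97% and 9.22% of all genes were called.

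Other classes moved the nuclear members in either direction. Gastric mucous-like barcodes had 64 nuclear members higher and 1 lower, where 26.4% of all genes were called higher and 12.3% lower, with 12 of 13 mitochondrial members higher (not mt-Nd6). Sdhd (1.39), Uqcr10, Cox5a (both 1.13) and Uqcrb (1.12) led, and Cox6b2 was lower (−1.32). Epididymal-like barcodes had 62 nuclear members higher and 3 lower, where 33.9% of all genes were called higher and 17.1% lower, led by Cox6c (1.81), Atp5g1 (1.59), Ndufa1 (1.53) and Ndufa7 (1.43), while 8 of 13 mitochondrial members were lower. Endothelial-like barcodes had 73 nuclear and 13 mitochondrial members lower, where 16.5% of all genes were called lower and 37.5% higher, with Cox7b (−1.03), Atp5e and Atp5g1 (both −0.95) the lowest, and 2 nuclear members higher. Neutrophil-like barcodes had 13 of 13 mitochondrial members higher (median 0.83), where 28.9% of all genes were called higher and 14.4% lower, with 4 nuclear members higher and 28 lower. Ndufaf7, which methylates a complex I subunit (1.46), was the highest of these, and Sdhaf3 (−1.19) the lowest. Without tissue null replicate 3 the nuclear members called higher and lower were 67 and 1 in gastric mucous-like (all genes 27.7% and 10.7%), 59 and 3 in epididymal-like (33.9% and 15.5%), 2 and 75 in endothelial-like (34.4% and 16.8%) and 4 and 37 in neutrophil-like barcodes (27.1% and 15.7%), and 7 mitochondrial members were lower in epididymal-like barcodes.

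The other genes of the pathway were described from lists, beside 37.6% of all genes called higher and 19.8% lower in the proximal tubule, 25.5% and 18.6% in the loop of Henle and 9.1% and 12.2% in hepatocyte-like barcodes. Tricarboxylic acid cycle enzymes were higher in 14 of 14 tested in both kidney classes, 1 of 14 in hepatocyte-like barcodes (with 1 lower). Carriers and exchangers were higher in 9 of 10 and lower in 1 in both kidney classes and lower in 5 of 10 in hepatocyte-like barcodes. Assembly factors outside the chosen prefixes were higher in 27 of 30 in the proximal tubule, 24 of 30 in the loop of Henle and 4 of 30 (1 lower) in hepatocyte-like barcodes. Genes of mitochondrial DNA expression were higher in 12 and lower in 2 of 15 in the proximal tubule, 10 and 1 of 15 in the loop of Henle, and neither in hepatocyte-like barcodes, where the edgeR test called 0 of 15 and 13 mitochondrial transcripts were higher. Glycolytic enzymes were split, 7 higher and 5 lower of 12 in the proximal tubule, 9 and 2 in the loop of Henle and 1 and 3 in hepatocyte-like barcodes.

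Several members have tissue-restricted isoforms, given here as a percent of the UMIs of the isoform and its common partner. UMIs are counted at transcript ends and were not divided by length. Ndufa4l2 (chr10:127514967-127517154, + strand), the hypoxia-inducible relative of the complex IV subunit Ndufa4, made 30.9% ± 8.22 (SD, n = 8) of the pair in smooth muscle-like barcodes, from 19.0% (null replicate 2, 4 of 21 UMIs) to 44.7% (het replicate 2, 93 of 208 UMIs). It made 6.83% ± 5.32 (SD) in fibroblast-like, 0.0485% in proximal tubule-like and 1.16% in haemoglobin-dominated barcodes. Cox4i2 (chr2:152754173-152765037, + strand), the lung and oxygen-sensing form of subunit 4, made 15.3% ± 5.41 (SD, n = 8) of its pair with Cox4i1 in the same smooth muscle-like barcodes, from 6.41% to 23.8% (395 of 2532 UMIs in all). It made 2.74% in endothelial-like, 0.0633% in proximal tubule-like and 0.909% in haemoglobin-dominated barcodes. The smooth muscle-like means were 31.0% and 15.4% without tissue null replicate 3. Each of the 8 smooth muscle libraries was over the haemoglobin-dominated mean for both isoforms.

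Cox6a2 (chr7:128205435-128206387, − strand), known as the heart and muscle form of subunit 6a, made 32.4% ± 9.42 (SD, n = 6) of its pair with Cox6a1 in alveolar type 2-like barcodes, from 18.4% (9 of 49 UMIs) to 43.5% (10 of 23 UMIs), with 126 of 402 UMIs in all (31.1% without tissue null replicate 3). It made 1.5% in haemoglobin-dominated and 0.649% in proximal tubule-like barcodes. Cox7a1 (chr7:30184144-30186078, + strand), the muscle form of subunit 7a, made 3.93% ± 1.21 (SD, n = 9) of its pair with Cox7a2 in proximal tubule-like barcodes, from 2.45% to 6.11%. Haemoglobin-dominated barcodes were at 3.75%, so this share is not read as particular to proximal tubule-like barcodes. Its CPM were nonetheless higher in both kidney classes (33.4, 50.3 and 73.2 against 6.75, 13.6 and 33.5 CPM in the proximal tubule, log2 difference 2.48 ± 0.191, SE, and 34.2, 69.5 and 118 against 5.28, 11.9 and 27.4 CPM in the loop of Henle, log2 difference 2.69), with groups that overlapped in the proximal tubule and not in the loop of Henle. Cox6b2, the testis form of subunit 6b, made 14.5% ± 2.01 (SD, n = 8) in alveolar macrophage-like, 15.3% in fibroblast-like and 15.9% in mesothelial-like barcodes, near the 12.9% ± 9.14 of haemoglobin-dominated barcodes (70 of 532 UMIs). In proximal tubule-like barcodes it made 4.30% ± 1.25 (SD, n = 9). With tissue null replicate 3 left out, Cox7a1 made 3.91% in proximal tubule-like and 4.37% in haemoglobin-dominated barcodes, and Cox6b2 made 4.29% and 12.3%. Cox8b did not exceed 1.11% of its pair with Cox8a in any tissue class.

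**Figure D3:**
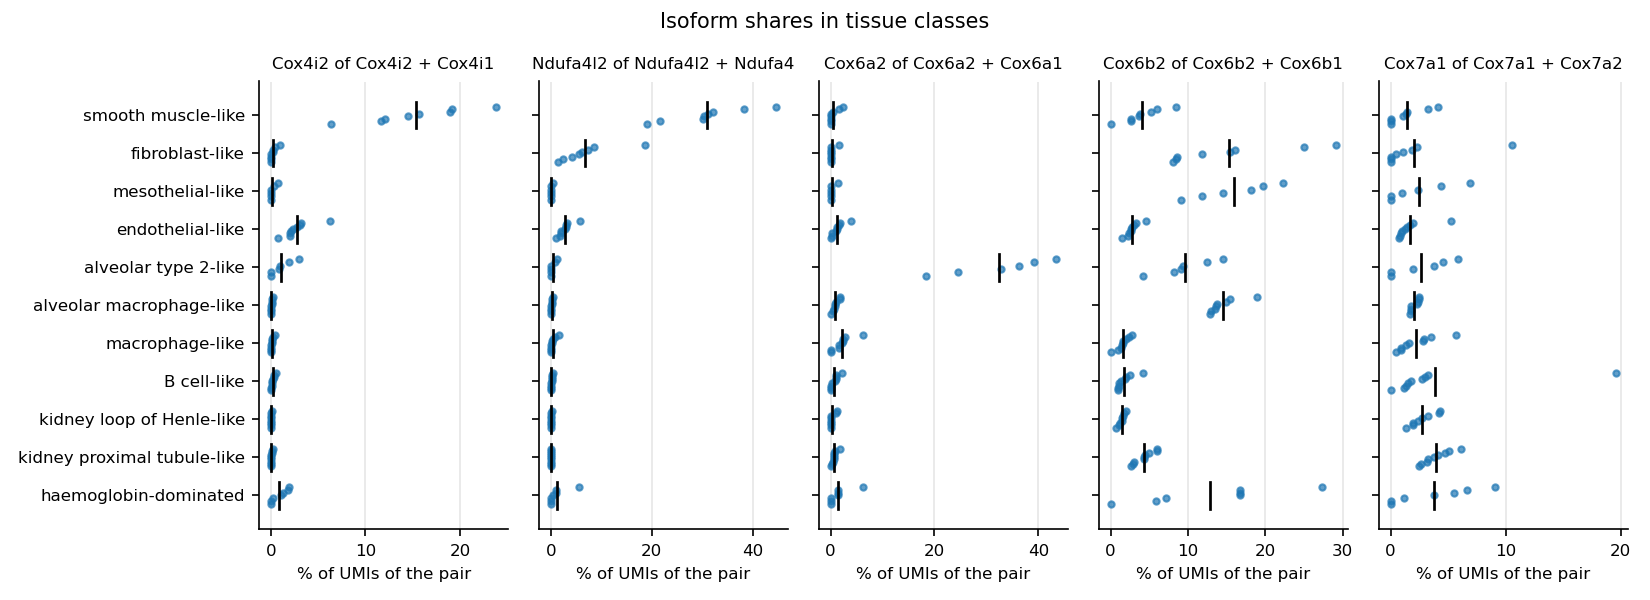
Percent of an isoform pair's UMIs taken by Ndufa4l2, Cox4i2, Cox6a2, Cox6b2 and Cox7a1 in tissue classes, 1 point per library with the class mean as a vertical line, haemoglobin-dominated barcodes included for comparison. Ndufa4l2 and Cox4i2 stand out in smooth muscle-like barcodes (30.9% and 15.3% on average) and Cox6a2 in alveolar type 2-like barcodes (32.4%).

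Sorted blood cells held far fewer mitochondrial UMIs than barcodes of the same class in tissue, while the nuclear share was of the same order. Nonclassical monocyte-like barcodes were compared over 7 ntCZC and 8 tissue libraries. Their mitochondrial share was 1.81% at lowest, 2.09% at median and 2.56% at highest in ntCZC, and 14.1%, 18.0% and 26.1% in tissue. The groups did not overlap and differed by −16.9 points (exact permutation p = 0.000155, two-sided and the smallest that 7 against 8 libraries allow, adjusted p = 0.0004 over 4 tests; −17.0 without tissue null replicate 3). The nuclear share of 1.89% ± 0.138 in the 7 ntCZC libraries and 1.78% ± 0.303 in the 8 tissue libraries (mean ± SD) did not pass the test (exact permutation p = 0.386). In B cell-like barcodes the mitochondrial share averaged 5.00% ± 0.504 over 6 ntCZC libraries (4.33% to 5.62%) and 25.4% ± 6.73 over 9 tissue libraries (16.0% to 38.5%), a difference of −20.4 points (exact permutation p = 0.0002, the smallest possible, adjusted p = 0.0004; −20.6 without tissue null replicate 3). The nuclear share was 1.74% in ntCZC and 1.90% in tissue (exact permutation p = 0.336). As a percent of all UMIs, where the mitochondrial UMIs enter the denominator, the nuclear difference was 0.411 points in monocyte-like (exact permutation p = 0.00373) and 0.228 points in B cell-like barcodes (exact permutation p = 0.175), against 0.112 and −0.165 points outside the mitochondrial UMIs. In barcodes with at most 25% mitochondrial UMIs the mitochondrial differences were −11.0 points in monocyte-like and −9.46 points in B cell-like barcodes. Within males the mitochondrial shares were 2.04% (n = 5) and 17.9% (n = 6) in monocyte-like and 4.78% (n = 4) and 23.8% (n = 6) in B cell-like barcodes, and within females 2.19% (n = 2), 22.4% (n = 2), 5.44% (n = 2) and 28.6% (n = 3).

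Unsorted blood was low too. In the single PBMC library the mitochondrial members took 4.06% of UMIs (95% Clopper-Pearson interval 4.03% to 4.10%, counting error only), with 5.12% in B cell-like, 3.73% in T cell-like and 2.99% in NK cell-like barcodes. Neutrophil-like barcodes were at 0.530% in PBMC (0.454% to 0.615%) and 0.374% in the 1 ntCZC library that held enough, against 30.9% ± 9.96 (SD, n = 9) in tissue. Haemoglobin-dominated barcodes were at 0.0457% ± 0.0191 (SD, n = 3) in ntCZC and 0.188% in PBMC against 16.1% in tissue. The median haemoglobin-dominated barcode held 1 mitochondrial UMI of 6023 in ntCZC and 181 of 1743 in tissue. The median nonclassical monocyte-like barcode held 85 in ntCZC and 284 in tissue, at 4272 and 2155 UMIs in all. Blood libraries were not dissociated from organs, pooled or hashtagged, and these steps cannot be told apart from the kind of library here.

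**Figure D4:**
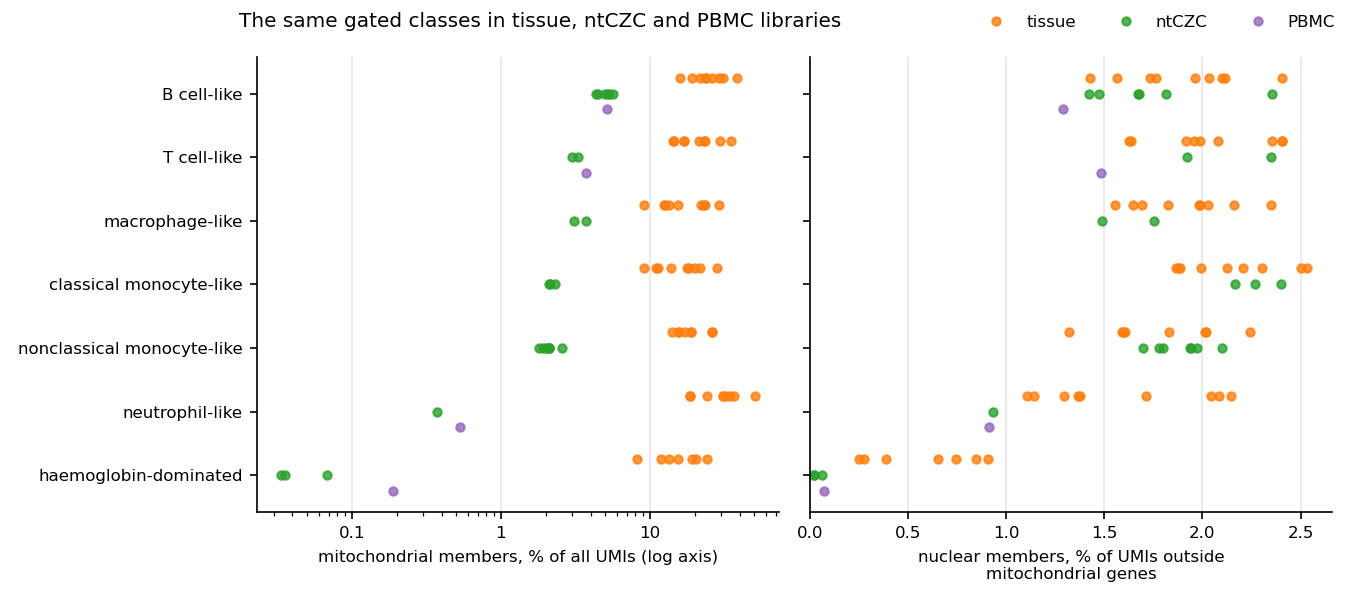
Mitochondrial share (percent of all UMIs, log axis) and nuclear share (percent of UMIs outside the mitochondrial members) of 7 classes in tissue, ntCZC and PBMC libraries, 1 point per library. The mitochondrial shares of blood and tissue do not overlap in any of these classes, while the nuclear shares of nonclassical monocyte-like and B cell-like barcodes in ntCZC and tissue do.

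The mitochondrial members were lower in blood nearly throughout. In nonclassical monocyte-like barcodes (edgeR quasi-likelihood test with sex as covariate, Benjamini-Hochberg adjustment over 3410 genes) 13 of 13 mitochondrial members were lower in ntCZC, where 20.7% of all genes were called lower. mt-Co3, a core subunit of complex IV, was at 1985, 2712 and 3593 CPM in ntCZC and at 24809, 38408 and 62134 CPM in tissue, without overlap (log2 difference −4.29). mt-Nd6 followed at −4.15 (−4.39 to −3.77 with single libraries left out). It rests on few UMIs, with tissue class means of 0.0664% to 0.138% of the mitochondrial UMIs. The smallest difference was that of mt-Atp8 (−1.46 ± 0.272, SE), whose 210, 257 and 367 CPM overlapped the 268, 534 and 1165 CPM of tissue. In B cell-like barcodes (6723 genes) 12 of 13 were lower, where 21.8% of all genes were called lower, led by mt-Nd6 (−3.41) and mt-Co3 (−3.21). mt-Atp8 was the exception, at 513, 850 and 981 CPM in ntCZC and 271, 686 and 1460 CPM in tissue.

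Some members made other percentages of the mitochondrial UMIs in ntCZC than in tissue, given here without a test. Across 23 tissue classes in at least 4 libraries, the class means ran from 18.9% to 22.4% for mt-Co3, from 14.1% to 20.4% for mt-Co1, from 0.216% to 0.444% for mt-Atp8 and from 0.0664% to 0.138% for mt-Nd6. mt-Co3 made 20.8% ± 2.20 (SD, n = 9) of the mitochondrial UMIs in proximal tubule-like, 19.7% ± 1.71 (SD, n = 4) in hepatocyte-like, 21.3% ± 2.13 (SD, n = 8) in nonclassical monocyte-like and 21.7% ± 2.24 (SD, n = 7) in haemoglobin-dominated barcodes (20.4%, 19.7%, 21.0% and 21.2% without tissue null replicate 3). In ntCZC it made 12.9% ± 1.19 (SD, n = 7) in monocyte-like and 13.1% ± 1.04 (SD, n = 6) in B cell-like barcodes. mt-Atp8 made 1.35% ± 0.219 in ntCZC and 0.302% ± 0.10 in tissue monocyte-like barcodes, and 1.56% and 0.313% in B cell-like ones. PBMC B cell-like barcodes were at 18.7% for mt-Co3 and 0.110% for mt-Atp8, nearer to tissue than to ntCZC for mt-Co3 and below both for mt-Atp8. mt-Co2 made 19.4% ± 0.728 in ntCZC and 14.3% ± 1.43 in tissue monocyte-like barcodes. mt-Nd6, the member encoded on the opposite strand, made 0.112% in tissue and 0.0569% in ntCZC monocyte-like barcodes. The tissue monocyte-like values without null replicate 3 were 0.301% for mt-Atp8, 14.4% for mt-Co2 and 0.113% for mt-Nd6.

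**Figure D5:**
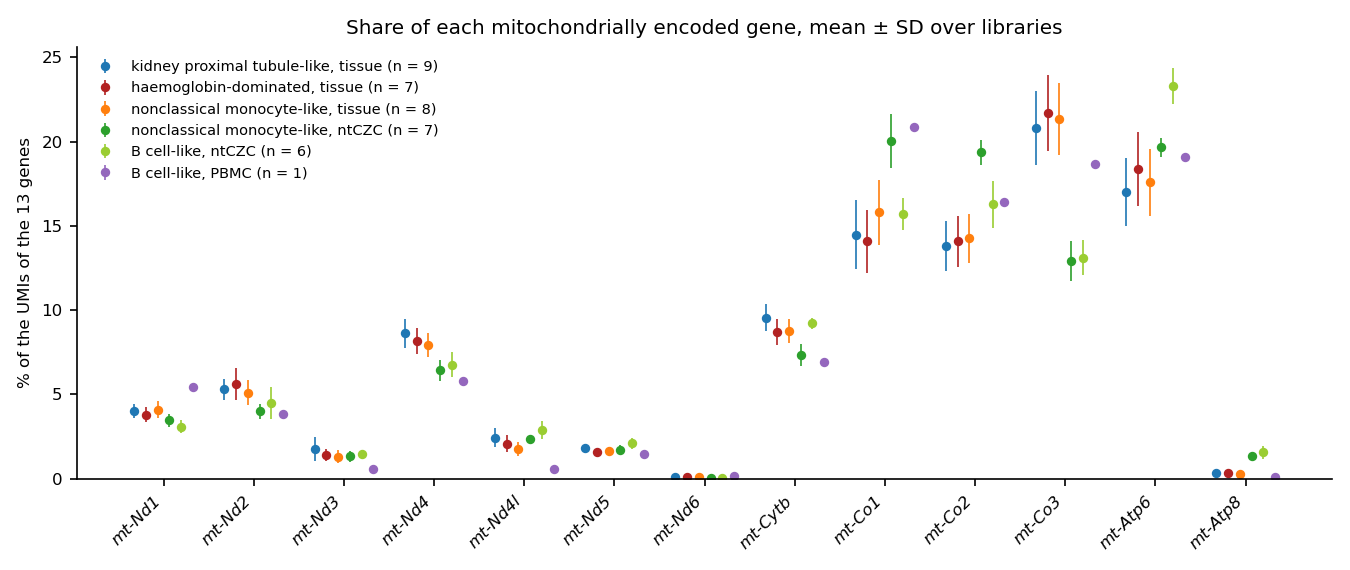
Percent of the UMIs of the 13 mitochondrial members taken by each of them in 3 tissue classes, 2 ntCZC classes and PBMC B cell-like barcodes, as mean ± SD over libraries (no SD for the single PBMC library). mt-Co3 lies near 20.8% to 21.7% in the 3 tissue classes and at 12.9% and 13.1% in the ntCZC classes.

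Few nuclear members differed between blood and tissue, and they moved both ways. In nonclassical monocyte-like barcodes 8 of 75 were higher in ntCZC, where 15.8% of all genes were called higher, and 9 were lower, where 20.7% were called lower, so neither share exceeded that of all genes in this fit. Cox4i1 (chr8:120668222-120674207, + strand) was at 585, 637 and 749 CPM in ntCZC and at 949, 1358 and 1643 CPM in tissue, without overlap (log2 difference −1.12 ± 0.127, SE; edgeR adjusted p = 5.08e-07). Of complex II, Sdha (42.0, 79.3 and 114 against 80.1, 117 and 211 CPM, −0.80) and Sdhc (−0.88) were lower while Sdhb (145, 149 and 231 against 43.2, 83.6 and 200 CPM, 1.00) was higher, each with overlapping groups. Ndufa12, an accessory subunit of complex I (−0.68), the c-ring gene Atp5g3 (−0.52), Atp5b (−0.51), the stalk subunit Atp5o (−0.49), Cox7a2l (−0.44) and the hinge protein Uqcrh (−0.33) were also lower. Ndufa1, a small complex I subunit encoded on the X chromosome, was higher at 173, 227 and 301 CPM against 44.5, 96.6 and 167 CPM, without overlap (0.84; edgeR adjusted p = 0.00171). Sdhaf1 (1.61), Ndufs4 (0.61), Ndufa11 (0.52), Uqcrfs1 (0.49), Ndufb8 (0.49) and Ndufv2 (0.46) were the others. Without the filter on low counts 13 of 93 (14%) were higher and 4 lower, where 6.34% and 17.9% of all genes were. Both counts also moved with single libraries. Without tissue null replicate 3, 15 of 77 nuclear members (19.5%) were higher and 2 lower, where 18.2% of all genes were called higher and 14.8% lower. Without tissue wt replicate 1, 4 of 74 were higher and 10 lower, where 13.9% and 18.1% of all genes were. Of the listed core subunits and isoforms, Atp5b, Atp5g3 and Sdhc lost their call without tissue null replicate 3. Atp5g3 lost it also without tissue wt replicate 2, 3 or 4, Sdhc without tissue wt replicate 3 and Uqcrfs1 without tissue wt replicate 1. The other named members were not followed one by one, and the counts above show that some of them lost their call too.

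In B cell-like barcodes 15 of 82 nuclear members were higher in ntCZC, where 17.3% of all genes were called higher, and 2 were lower, where 21.8% were called lower, so the share higher (18.3%) was near that of all genes. Cox4i1 was again lower, at 392, 415 and 529 CPM against 916, 1124 and 1539 CPM without overlap (−1.26), and Atp5g3 was lower (−0.66; 76.1, 181 and 233 against 202, 332 and 392 CPM). Sdhaf1 (chr7:30321406-30323895, − strand) was higher at 77.5, 145 and 177 CPM against 28.2, 47.5 and 54.6 CPM, without overlap (1.84 ± 0.231, SE; edgeR adjusted p = 1.22e-05). It was at 42.2 CPM in PBMC B cell-like barcodes, within the tissue range, where Cox4i1 was at 695 CPM, between the 2 groups. Ndufs8, an iron-sulphur subunit of complex I (0.93), Ndufaf8, an assembly factor (0.91), Sdhb (0.77), Atp5g2 (0.73), Uqcrc2 (0.63) and Uqcrfs1 (0.59) were higher too. Within the c-ring genes Atp5g2 made 62.5% ± 3.97 (SD, n = 6) in ntCZC, 57.5% in PBMC and 43.6% ± 3.53 (SD, n = 9) in tissue B cell-like barcodes. Without tissue null replicate 3, 15 members were higher and 1 lower, where 18.1% and 21.9% of all genes were. Without ntCZC het replicate 1 the counts were 6 higher and 6 lower (all genes 11.4% and 20.1%), and without ntCZC het replicate 3 they were 6 and 1 (all genes 13.5% and 17.5%). Without tissue wt replicate 2 the counts were 20 (24.4%) and 1, where 19.2% and 22.1% of all genes were called. Some of the members named here thus lost their call when a library was left out, and which ones was not followed. The monocyte-like and B cell-like barcodes came from largely the same libraries, so these are not independent comparisons.

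The lists of other pathway genes are set beside 15.8% of all genes called higher and 20.7% lower in monocyte-like and 17.3% and 21.8% in B cell-like barcodes, and counts near these shares are no result about a list. Of these genes, 2 of 9 carriers were higher and 2 lower in monocyte-like barcodes (2 of 10 higher in B cell-like), 2 of 9 and 2 of 14 tricarboxylic acid cycle enzymes were lower (1 of 14 higher in B cell-like), and 3 of 10 and 3 of 12 glycolytic enzymes were higher with 1 lower each. Of assembly factors outside the prefixes 1 of 9 was higher and 1 lower in monocyte-like barcodes, and 2 of 16 were higher in B cell-like ones. Genes of mitochondrial DNA expression passed the filter only in B cell-like barcodes (2 higher and 1 lower of 11).

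Genotype was the question of the study, and no member was called between genotypes in the edgeR tests over all libraries after the filter on low counts. The mitochondrial share of whole ntCZC libraries was 2.87%, 2.59%, 2.07% and 2.69% in null, 3.15%, 2.75%, 4.79% and 2.48% in het (replicates 1 to 4) and 2.04% and 6.38% in wt libraries. The groups overlapped. The value of 6.38% belonged to wt replicate 3, which had 77 barcodes, a median of 325 UMIs and a nuclear share of 0.331%. The nuclear share was 1.38%, 1.95%, 1.33% and 1.39% in null, 2.21%, 1.89%, 1.63% and 1.81% in het and 1.78% and 0.331% in wt libraries. Null and het differed by −0.737 points in the mitochondrial (exact two-sided permutation p = 0.229) and −0.373 points in the nuclear share (exact permutation p = 0.114), where 4 against 4 libraries allow no p under 0.0286, and the 4 comparisons with wt had exact permutation p from 0.133 to 0.733, where 4 against 2 allow none under 0.0667. These shares are of whole libraries, so the mix of classes enters the differences. The permutation also left sex aside, and most null libraries were female whereas most het and all wt libraries were male. Neither influence was tested. In nonclassical monocyte-like barcodes alone, the mitochondrial share ran from 1.81% (replicate 1) to 2.56% (replicate 4) in null libraries. Each het library with at least 20 such barcodes lay within that range. Without wt replicate 3 the null minus wt differences were 0.520 (mitochondrial) and −0.269 points (nuclear), and those of het 1.26 and 0.104 points, so that 3 of the 4 changed sign, with 1 wt library left. In barcodes with at most 25% mitochondrial UMIs the mitochondrial difference was −0.806 points between null and het (exact permutation p = 0.0286, the smallest that 4 against 4 allow, adjusted p = 0.16 over 6 comparisons), and the differences from wt changed sign, from −1.65 to 0.769 points for null and from −0.913 to 1.58 points for het (exact permutation p = 0.133 and 0.0667). With haemoglobin UMIs left out the nuclear shares were 1.87%, 2.09%, 1.98% and 1.88% in null, 2.31%, 1.90%, 1.71% and 1.93% in het and 1.81% and 1.54% in wt libraries. The mitochondrial shares were then 3.83%, 2.76%, 3.07% and 3.60% in null, 3.28%, 2.76%, 5.03% and 2.64% in het and 2.07% and 24.1% in wt libraries.

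Over 9379 genes, the edgeR test called 0 members between null and het, 0 between null and wt and 0 between het and wt, with 0%, 0% and 0.107% of all genes called. At an unadjusted p under 0.05 there were 0 of 13 mitochondrial and 2 of 87 nuclear members between null and het, where 7.31% of all genes had such a p. There were 12 and 12 between null and wt, where 3.84% of all genes did, and 12 and 16 between het and wt, where 7.9% did. DESeq2 called 0, 0 and 2 members, and 0.171%, 0.139% and 1.08% of all genes. Without ntCZC wt replicate 1, which left wt replicate 3 as the only wt library, assumed to vary like the other groups, edgeR called 12 members lower in null and 13 lower in het than in wt, each of them mitochondrial, where it called 0.649% and 0.974% of all genes in either direction.

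In tissue, genotypes were compared within proximal tubule-like, endothelial-like, macrophage-like, fibroblast-like, B cell-like and T cell-like barcodes. Tissue barcodes were not split by ZsGreen, so each class can include cells in which Cre had not been active. The mitochondrial share of proximal tubule-like barcodes was 37.8% and 48.0% in null, 52.1% and 56.4% in het and 51.7% ± 7.11 (SD, n = 5; 42.8% to 61.0%) in wt libraries, with overlapping groups (exact permutation p = 0.238 and 0.667 against wt). The null minus wt difference of −8.79 points was −13.9 without null replicate 3 and −3.66 without null replicate 2. The nuclear share was 5.69%, 6.33% and 5.35% on average. None of 24 share comparisons passed adjustment. The lowest exact permutation p, 0.0476, was that of the nuclear share of T cell-like barcodes in het (1.63% against 2.07% in wt, 2 against 5 libraries), adjusted p = 0.762, and is the smallest that 2 against 5 libraries allow. The edgeR test called 0 members in the 12 contrasts, where 0% of all genes were called in each. At an unadjusted p under 0.05, 11 of 78 mitochondrial and 19 of 511 nuclear member tests passed for null, where 5.68% of all gene tests did, and 9 of 78 and 79 of 511 for het, where 7.36% did. DESeq2 called 9 and 6 members, and 0.131% and 0.237% of all gene tests. The null values rest on 2 libraries, 1 of them null replicate 3, so that 1 null library remains without it.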

How the data were processed

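The authors aligned 10x v3 3′ reads to mm10 with Cell Ranger (2.1.1 in the submitters' processing notes, 3.0.2 in the matrix headers) and deposited filtered matrices of raw UMI counts, whole numbers for each gene in each barcode. The submitters' notes also name Seurat. The later quality filters of the study, which removed barcodes with outlying mitochondrial UMIs, were not applied here, and no doublets were removed. The labels name no strand setting for counting.

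Members, classes and lists were chosen with earlier results of these data known. Barcodes were gated by fixed markers, and UMIs were summed per library and class where a library held at least 20 barcodes. Coordinates are those of GENCODE vM21. The named genes are every mitochondrial member, fixed lists of isoforms (Cox4i1, Cox4i2, Cox6a1, Cox6a2, Cox6b1, Cox6b2, Cox7a1, Cox7a2, Cox8a, Cox8b, Ndufa4, Ndufa4l2, Atp5g1 to Atp5g3) and core subunits (Ndufs1, Ndufv1, Sdha to Sdhd, Uqcrc1, Uqcrc2, Uqcrfs1, Atp5a1, Atp5b), and per comparison up to 3 other called members in each direction with the largest changes. Cox7a2l and Sdhaf2 in the kidney classes, Ndufa7 in epididymal-like barcodes and the further nuclear members of the blood comparisons were named after their values had been seen.

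Counts were tested with the edgeR (4.0.16, R 4.3.3) quasi-likelihood test with TMM scaling, filterByExpr and Benjamini-Hochberg adjustment at 0.05, with the library as a block between classes and sex as covariate elsewhere. DESeq2 (1.42.0) was an alternative. Shares were compared by exact two-sided permutation over libraries (numpy 2.4.6, scipy 1.17.1, pandas 2.3.3, Python 3.11.15). The class fit held 164 sums from 9 libraries, of classes in at least 4 libraries, whereas means over the other classes also took in the distal-like and intercalated-like ones. Tissue null replicate 3 was left out of the class results as an alternative chosen after seeing the data. The code was tested on simulated counts. Other alternatives were RLE scaling, no filter, stricter and looser gates (4 markers with a margin of 3, or 2 with 1), barcodes of 1000 to 3000 UMIs, at most 25% mitochondrial UMIs, other denominators, a replicate block and leaving out each library. Replicates of a group differed by at least 4.75 chi-square per degree of freedom over genes, so none was counted as the same library.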

Additional observations from a re-analysis of the deposited data

Results flagged for a closer look

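Of 56 sets of 4 to 10 libraries examined for a single library standing apart by Dixon's criterion, 4 had one, where chance flags about 1 in 20. In tissue, the mitochondrial share of endothelial-like barcodes in wt replicate 5 was 39.7%, with the nearest library at 24.7%. The same library had the highest mitochondrial share in each of the 8 classes present in all tissue libraries. The nuclear share of gastric mucous-like barcodes in tissue wt replicate 1 was 4.36%, with the nearest at 3.35%. The mitochondrial share of nonclassical monocyte-like barcodes in ntCZC null replicate 4 was 2.56%, with the nearest at 2.11%. The nuclear share of the whole ntCZC null replicate 2 library was 1.95%, with the nearest null library at 1.39%. With haemoglobin UMIs left out, the null libraries were at 1.87%, 2.09%, 1.98% and 1.88%.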

How the results depend on the processing

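Of the results of the comparisons under alternatives, 403 kept their direction and side of the threshold (or moved within the spread or 1.5 times the count), 38 moved, 2 became called and 7 changed sign. For single genes 974 were unchanged in this sense and 14 lost the call, with none changing sign. Barcodes with at most 25% mitochondrial UMIs gave a mitochondrial difference of −0.806 points between ntCZC null and het (exact permutation p = 0.0286, adjusted p = 0.16 over 6 comparisons). The difference was 0.769 between null and wt (exact permutation p = 0.133) and 1.58 between het and wt (exact permutation p = 0.0667). In proximal tubule-like barcodes it was −0.717 between tissue het and wt (exact permutation p = 0.533). As a share of all UMIs, the nuclear difference between ntCZC and tissue was 0.411 in monocyte-like (exact permutation p = 0.00373) and 0.228 in B cell-like barcodes (p = 0.175, exact), since the mitochondrial UMIs then enter the denominator. Nuclear members lower in the proximal tubule numbered 1 with RLE, 2 with DESeq2 and 1 in barcodes of 1000 to 3000 UMIs, where 20.5%, 37.8% and 21.9% of all genes were lower. Without a filter, monocyte-like barcodes had 13 nuclear members higher and 4 lower in ntCZC (all genes 6.34% and 17.9%), and B cell-like ones 6 and 4 (4.72% and 13.4%). DESeq2 gave 5 lower in B cell-like barcodes, where 25.7% of all genes were lower. Called members between genotypes were 1 (no filter) and 2 (DESeq2) for ntCZC het against wt, 1 and 9 for tissue null against wt and 3 and 6 for tissue het against wt, where 0.564% and 1.08%, 0.404% and 0.131% and 0.942% and 0.237% of all genes were called. The cause of these shifts was not tested.

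Leaving out each library gave differences of 24.2 to 26.5 (mitochondrial) and 2.96 to 3.17 points (nuclear) in the proximal tubule, −17.6 to −15.9 and 0.0466 to 0.179 in monocyte-like and −21.6 to −18.8 and −0.288 to −0.101 in B cell-like barcodes, −13.9 to −3.66 and 0.336 to 4.89 for proximal tubule null and het against wt, and −1.01 to −0.237 for ntCZC null against het. Against ntCZC wt the ranges were −3.82 to 0.520 (mitochondrial) and −0.269 to 1.18 (nuclear) for null, and −3.08 to 1.26 and 0.104 to 1.55 for het, with the sign changes without wt replicate 3. It left 87 to 89 nuclear members higher in the proximal tubule, 4 to 15 higher and 2 to 12 lower in monocyte-like and 6 to 20 higher and 1 to 6 lower in B cell-like barcodes, and 0, 0 to 12 and 0 to 13 called between ntCZC genotypes. The extremes in monocyte-like barcodes came without tissue wt replicate 1 (4 higher), null replicate 3 (15 higher, 2 lower) and het replicate 2 (12 lower, where 17.8% of all genes were). In B cell-like barcodes they came without ntCZC het replicate 1 (6 higher, 6 lower), het replicate 3 (6 higher, 1 lower) and tissue wt replicate 2 (20 higher, 1 lower, where 19.2% and 22.1% of all genes were), and in ntCZC genotypes without wt replicate 1.

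With the replicate number as a block, monocyte-like barcodes had 6 nuclear members higher and 4 lower (all genes 14.2% and 19.3%) and B cell-like ones 11 and 1 (13.8% and 19.1%), with 13 and 12 mitochondrial members lower, and genotypes 0. Same-numbered ntCZC null and het libraries deviated together weakly (correlations of 0.004 to 0.155), and paired tests gave exact permutation p = 0.375 and 0.25. The labels do not say whether such libraries share more than a number, and these correlations over whole libraries cannot decide it. Of the 2 ntCZC wt libraries, replicate 3 held 161541 UMIs, the fewest of the series.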

Other observations

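The 2 tissue libraries with conflicting labels entered no comparison. The library titled replicate 3 had 42.8% mitochondrial UMIs and a nuclear share of 2.74%. Its proximal tubule-like barcodes were at 51.9% and 5.91%, and its mitochondrial shares were 11.5% in haemoglobin-dominated, 20.3% in endothelial-like and 23.3% in B cell-like barcodes. The library titled replicate 1 had 19.0% and 2.31%, with 44.2% and 5.01% in proximal tubule-like barcodes, and mitochondrial shares of 15.5%, 14.3% and 13.8% in the other 3 classes. The proximal tubule-like values of both lay within the range of the 9 libraries with a group, and the endothelial-like and B cell-like shares of the latter lay under the lowest of them.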
